A study of Mus musculus with 9 samples.

Results

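The genes described here encode the colony-stimulating factor (CSF) receptors and a ligand that serves them: Csf1r, Csf2ra, Csf2rb, Csf2rb2 and Csf3r on the receptor side, and Csf1 on the ligand side. They were chosen by name, and all 6 were found among the 49315 genes of the count table and among the 15963 genes with enough reads to test. RNA was sequenced from RAW 264.7, a macrophage line from a virus-induced mouse tumour whose cells can fuse into osteoclast-like cells under the cytokine RANKL. The 3 groups of 3 libraries were cells given 140 µM pamidronate with 5.25 µM geranylgeraniol (GGOH), cells given 140 µM pamidronate alone, and control cells given neither. By the growth notes every culture also received 20 ng/ml RANKL after 24 h of growth, although the control samples are labelled as untreated. Pamidronate was added at 48 h and the cells were collected 24 h later, so the groups differ, as labelled, in pamidronate and GGOH only. All libraries came from this 1 cell line, and the groups therefore describe a transformed macrophage line rather than primary osteoclast precursors.

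CSFs are cytokines that keep myeloid cells alive and steer what they become. CSF-1 (M-CSF, encoded by Csf1) and interleukin-34 bind the receptor tyrosine kinase encoded by Csf1r, which macrophages and osteoclast precursors need in order to survive and multiply. GM-CSF binds a specific alpha chain (Csf2ra) that signals through a common beta chain (Csf2rb) shared with the interleukin-3 and interleukin-5 receptors. The mouse carries an additional beta chain gene, Csf2rb2, whose product works with the interleukin-3 receptor alone. G-CSF acts through Csf3r, best known from neutrophils. Pamidronate is a nitrogen-containing bisphosphonate that blocks farnesyl diphosphate synthase and so the supply of isoprenoid lipids, and GGOH is an alcohol from which cells can make the geranylgeranyl lipid downstream of that block. The comparisons ask what pamidronate did to these genes, and which of those differences were smaller when GGOH was present.

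With pamidronate alone, the CSF-1 receptor, the GM-CSF receptor alpha chain, the common beta chain and the G-CSF receptor all fell against control, and Csf1 and Csf2rb2 rose. All 6 genes passed an adjusted p under 0.05, 2 of them higher and 4 lower, in a comparison where 69.2% of all tested genes passed (36.2% higher and 32.9% lower). With so many genes passing, a count of 6 of 6 is not in itself a result about these genes. Their median log2 change was -0.94, against 0.08 over all genes tested. When GGOH was added to pamidronate, 4 of the 6 rose against pamidronate alone, 0 fell and 2 did not pass, beside 48.8% of all genes passing (25.2% higher and 23.6% lower). Those that rose were Csf1r, Csf2ra, Csf2rb and Csf3r, and those that did not pass were Csf1 and Csf2rb2. The median of the 6 was 0.86, against 0.00 over all genes. Against control, cells given pamidronate with GGOH had 2 of the 6 genes higher, 2 lower and 2 not passing, beside 52.4% of all genes passing (26.3% higher and 26.0% lower), and a median of -0.08 against 0.02 over all genes. Each group enters 2 of these comparisons, so the 3 sets of values are not independent of each other. The RNA came from whole cultures, in which fewer cells of a type and less RNA per cell cannot be told apart.

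**Figure D1:**
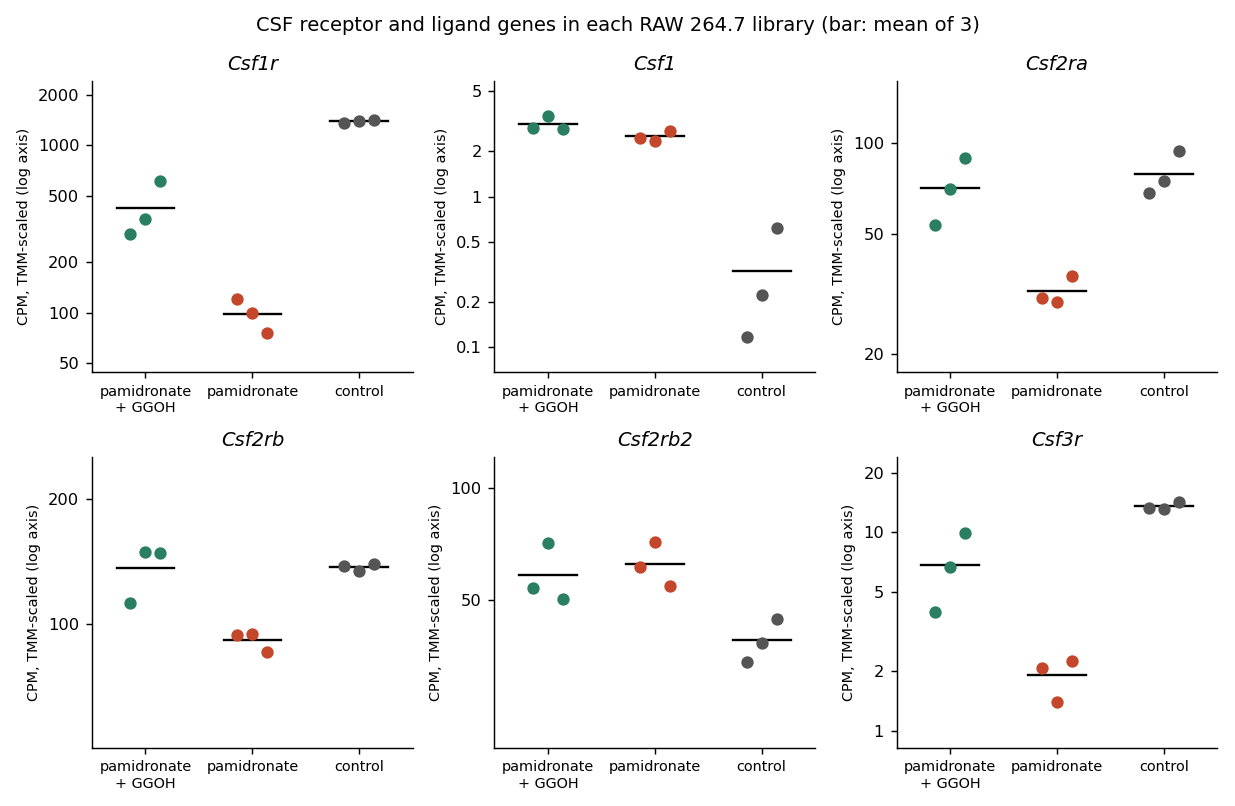
CPM (counts scaled to library size with TMM factors, log axis) of the 6 genes in each of the 9 libraries, with points for libraries and bars for the mean of 3. For Csf1r and Csf3r the 3 pamidronate + GGOH libraries lie between the pamidronate and control libraries, while Csf1 and Csf2rb2 lie above control in both groups given pamidronate.

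Macrophage markers were abundant in sum in every library, and most of them fell with pamidronate against control. The 7 macrophage markers examined summed to 6221 to 8858 CPM (counts scaled to library size) in pamidronate + GGOH libraries, 4425 to 6314 CPM in pamidronate libraries and 13790 to 18460 CPM in control libraries. Most of each sum was Lyz2, at means of 5895, 4303 and 13710 CPM in the same order of groups. With pamidronate against control 6 of 7 fell, where 32.9% of all genes fell and 69.2% passed. On adding GGOH 4 rose and 1, Cd68, fell, where 25.2% of all genes rose and 23.6% fell. In pamidronate + GGOH cells against control 0 rose and 4 fell, where 26.3% of all genes rose and 26.0% fell. Cd14 was the marker that did not pass with pamidronate against control, at 634.5 ± 106.0 CPM in pamidronate cells and 683.6 ± 35.0 CPM in control cells. Of 9 osteoclast markers, 6 were tested, and their sum over all 9 was 241.6 to 248.2 CPM, 268.5 to 407.5 CPM and 89.0 to 109.5 CPM in the same 3 groups. Atp6v0d2 was the largest part of it, at means of 125.7, 271.9 and 58.25 CPM. With pamidronate against control 4 of the 6 rose and 0 fell, where 36.2% of all genes rose and 69.2% passed. On adding GGOH 2 rose and 3 fell, beside 48.8% of all genes passing. In pamidronate + GGOH cells against control 5 rose and 0 fell, beside 52.4%. Marker lists of granulocytes, mast cells, dendritic cells, fibroblasts, epithelial cells, lymphocytes and endothelial cells summed to no more than 8.35 CPM in any library. Mitochondrially encoded genes took 5.43% to 6.31% of counts in pamidronate + GGOH libraries, 3.71% to 5.19% in pamidronate libraries and 10.4% to 10.8% in control libraries. The part of these differences in the changes of the CSF genes was not tested.

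Csf1r, the CSF-1 receptor gene, had the largest change of the 6 with pamidronate against control and on adding GGOH. Its level was 296.4, 361.0 and 613.8 CPM in the 3 pamidronate + GGOH libraries, 120.1, 99.9 and 75.4 CPM in the pamidronate libraries, and 1357, 1400 and 1416 CPM in the control libraries. The 3 groups did not overlap, and replicate 3 of pamidronate + GGOH stood nearest to control. The gene fell 14.1-fold with pamidronate against control (log2 fold change -3.82 ± 0.30 SE, adjusted p = 4.59e-06, edgeR quasi-likelihood test). It rose 4.30-fold when GGOH was added to pamidronate (log2 2.11 ± 0.28, adjusted p = 0.000314). Even so it remained 3.28-fold lower than in control cells (log2 -1.71 ± 0.27, adjusted p = 0.000909). The gene (ENSMUSG00000024621) lies on chromosome 18 at 61105572 to 61132149 of GRCm38, plus strand, with 4885 exon bases in the authors' files. Of these, 17.8% are also exon of Hmgxb3 on the opposite strand, and whether counting used the strand is not stated in the sources used here. Hmgxb3 stood at 62.8 to 73.4 CPM in pamidronate + GGOH libraries, 70.1 to 80.2 CPM in pamidronate libraries and 49.2 to 51.6 CPM in control libraries, a higher level in both groups given pamidronate.

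Levels between genes were compared per length, in the authors' TPM (each count divided by the exon length of its gene, with equal library totals). Csf1r averaged 247.8 ± 99.9 TPM in pamidronate + GGOH cells, 50.2 ± 12.5 TPM in pamidronate cells and 645.7 ± 48.9 TPM in control cells (SD, n = 3 each). In control cells it was the most abundant of the 6, well above Csf2ra, and no 2 neighbours in the order Csf1r, Csf2ra, Csf2rb, Csf2rb2, Csf3r and Csf1 had overlapping ranges. In pamidronate cells that order had closed up. Csf1r spanned 37.9 to 62.8 TPM there, Csf2rb 44.0 to 50.4 TPM and Csf2ra 39.2 to 48.4 TPM, so the 3 could not be ranked, and neither could Csf3r and Csf1 at the bottom. In pamidronate + GGOH cells Csf1r stood clear at the top again, and Csf2ra and Csf2rb overlapped each other.

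Put as a share of the summed TPM of the 5 receptor genes, Csf1r made up 50.6% ± 6.10 in pamidronate + GGOH cells, 28.2% ± 4.65 in pamidronate cells and 77.3% ± 1.54 in control cells. The share of Csf2rb2 ran the other way, at 7.97% ± 2.58, 19.1% ± 2.07 and 2.29% ± 0.216 in the same 3 groups. The 5 receptor genes together summed to 480.9 ± 138.7 TPM in pamidronate + GGOH cells, 176.0 ± 15.1 TPM in pamidronate cells and 835.9 ± 76.5 TPM in control cells. The make-up of the CSF receptor transcripts thus differed between groups as well as their total. TPM carries no TMM factors, and levels between groups can differ from those in CPM. Csf2rb averaged 81.8 TPM in pamidronate + GGOH cells and 65.1 TPM in control cells, but 136.4 and 136.8 CPM. These shares and sums are descriptions and were not tested.

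**Figure D2:**
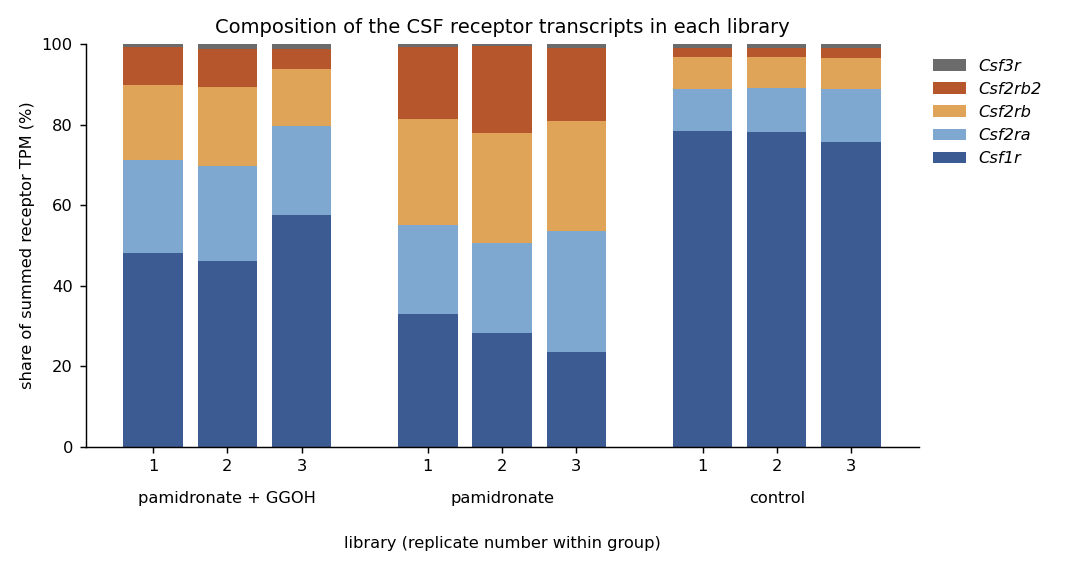
Share (%) of the summed TPM of the 5 CSF receptor genes taken by each gene, with 1 stacked bar for each of the 9 libraries. Csf1r takes 46.0% to 57.5% in the pamidronate + GGOH libraries, 23.6% to 32.9% in the pamidronate libraries and 75.6% to 78.3% in the control libraries.

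Csf2ra, the chain that gives the GM-CSF receptor its specificity, fell with pamidronate against control and rose on adding GGOH. It stood at 53.5, 70.5 and 89.0 CPM in pamidronate + GGOH libraries, 30.7, 29.7 and 36.4 CPM in pamidronate libraries, and 68.2, 74.7 and 94.4 CPM in control libraries. The pamidronate libraries lay below all the others, while the pamidronate + GGOH and control libraries overlapped. The fall with pamidronate was 2.45-fold (log2 -1.29 ± 0.18, adjusted p = 9.92e-05) and the rise on adding GGOH was 2.20-fold (log2 1.14 ± 0.18, adjusted p = 0.000513). Between pamidronate + GGOH and control no difference passed the test (log2 -0.15, 95% interval -0.55 to 0.24, adjusted p = 0.488), so a difference of either sign within that interval is not excluded, and the sign turned with another scaling of the libraries (0.044 with upper-quartile factors). Csf2ra (ENSMUSG00000059326) lies on chromosome 19 at 61224402 to 61228418, minus strand.

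Csf2rb, the common beta chain through which the GM-CSF receptor signals, moved in the same pattern with smaller steps. Its level was 112.2, 148.8 and 148.1 CPM in pamidronate + GGOH libraries, 94.0, 94.3 and 85.4 CPM in pamidronate libraries, and 137.6, 133.7 and 139.2 CPM in control libraries. The pamidronate libraries were again below all the rest, and replicate 1 of pamidronate + GGOH lay below the control range while replicates 2 and 3 lay above it. Pamidronate against control gave a 1.50-fold fall (log2 -0.59 ± 0.10, adjusted p = 0.000151), and GGOH added to pamidronate gave a rise of 0.58 ± 0.10 on the log2 scale (adjusted p = 0.000343). Pamidronate + GGOH against control gave a log2 difference of -0.0046 (95% interval -0.22 to 0.21, adjusted p = 0.975), whose sign turned under upper-quartile scaling (0.20).

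Csf2rb2, the interleukin-3 beta chain of the mouse, went the opposite way from its neighbour. It had 53.8, 71.3 and 50.4 CPM in pamidronate + GGOH libraries, 61.4, 71.6 and 54.6 CPM in pamidronate libraries, and 34.1, 38.5 and 44.5 CPM in control libraries. Both groups given pamidronate lay above every control library and overlapped each other. The rise was 1.60-fold with pamidronate against control (log2 0.68 ± 0.14, adjusted p = 0.000961) and 1.50-fold with pamidronate + GGOH against control (log2 0.58 ± 0.14, adjusted p = 0.00451). Adding GGOH to pamidronate gave a log2 difference of -0.10 with a 95% interval of -0.41 to 0.21 (adjusted p = 0.601), which leaves room for a change of up to about that size in either direction. Il3ra, the alpha chain with which the Csf2rb2 product forms the interleukin-3 receptor, had 0 to 5 counts in every library and was not tested.

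The pair are near-identical copies that lie side by side on chromosome 15, Csf2rb (ENSMUSG00000071713) at 78325990 to 78351000 on the plus strand and Csf2rb2 (ENSMUSG00000071714) at 78282517 to 78305603 on the minus strand. In their GENCODE M21 transcripts, 95.4% of the aligned coding bases were identical, and the longest stretch that both transcripts share unbroken was 242 bases. A read that falls wholly in shared sequence cannot be placed by its letters: 18.4% of 50-base windows and 6.96% of 100-base windows of the Csf2rb transcript occur whole in the Csf2rb2 transcript. The sources used here do not say how such reads were counted. Among stretches of 90 coding bases that start at a codon and align without gaps, the one where the genes differ most is shown. It makes plain what could tell them apart, though stretches with a gap in the alignment were not considered. It lies at chr15:78338890-78338979 (plus strand, coding bases 301 to 390) for Csf2rb and chr15:78294352-78294441 (minus strand, coding bases 304 to 393) for Csf2rb2, both GRCm38 and each inside 1 exon. Capitals mark the 15 differing bases.
Csf2rb: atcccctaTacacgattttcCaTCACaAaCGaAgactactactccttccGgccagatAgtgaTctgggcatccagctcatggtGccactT
Csf2rb2: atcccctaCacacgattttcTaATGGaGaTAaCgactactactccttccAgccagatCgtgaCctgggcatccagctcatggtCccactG

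Because shared reads could move counts between the copies, their sum was fitted as 1 gene. The sum did not pass the test for pamidronate against control (log2 -0.19 ± 0.10, adjusted p = 0.109), rose for GGOH added to pamidronate (0.34 ± 0.10, adjusted p = 0.0134) and did not pass for pamidronate + GGOH against control (0.15 ± 0.10, adjusted p = 0.240). The opposite moves of the separate genes thus largely cancel in the sum with pamidronate. The ratio of Csf2rb2 to Csf2rb within a library does not depend on how libraries are scaled, and its log2 mean was -1.23 ± 0.29 in pamidronate + GGOH cells, -0.55 ± 0.14 in pamidronate cells and -1.82 ± 0.18 in control cells (SD, n = 3 each). The 3 groups did not overlap. Each of the 3 differences had an exact two-sided permutation p of 0.1, the smallest that 3 against 3 libraries allow, and 0.1 after adjustment over the 6 ratio tests.

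Csf3r, the G-CSF receptor, was scarce throughout and followed the pattern of Csf1r. Its counts were 70, 107 and 188 in pamidronate + GGOH libraries, 34, 22 and 36 in pamidronate libraries, and 228, 234 and 229 in control libraries. Scaled, these were 3.97, 6.67 and 9.88 CPM, then 2.08, 1.39 and 2.23 CPM, then 13.3, 13.1 and 14.2 CPM in the same order of groups. No 2 groups overlapped, and replicate 3 of pamidronate + GGOH was again the nearest to control. The gene fell 7.09-fold with pamidronate against control (adjusted p = 1.9e-06), rose 3.60-fold on adding GGOH to pamidronate (log2 1.85 ± 0.30, adjusted p = 0.000231) and was 1.97-fold lower with pamidronate + GGOH than in control (log2 -0.98 ± 0.25, adjusted p = 0.00598). Markers of granulocytes, the cells in which this receptor is best known, summed to 1.10 to 1.76 CPM in pamidronate + GGOH libraries, 1.49 to 1.83 CPM in pamidronate libraries and 0.467 to 0.928 CPM in control libraries, over 7 genes. Csf3r (ENSMUSG00000028859) lies on chromosome 4 at 126024550 to 126044440, plus strand.

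Csf1, which encodes the ligand of Csf1r, was almost silent in control cells and higher in both groups given pamidronate. Its counts were 50, 55 and 53 in pamidronate + GGOH libraries, 40, 37 and 44 in pamidronate libraries, and 2, 4 and 10 in control libraries, in libraries of 14356069 to 18957968 counts. Every library given pamidronate lay above every control library. The rise was 7.81-fold with pamidronate against control (log2 2.97 ± 0.39, adjusted p = 1e-05) and 9.39-fold with pamidronate + GGOH against control (log2 3.23 ± 0.39, adjusted p = 1.68e-05). Control replicate 3 holds most of the control reads, and without it the same log2 values were 3.75 and 4.06. With each library left out in turn they ran from 2.57 to 3.75 and from 2.83 to 4.06. The pamidronate + GGOH libraries, at 2.84, 3.43 and 2.79 CPM, lay above the pamidronate libraries, at 2.44, 2.34 and 2.73 CPM, by a margin that did not pass the test (log2 0.27, 95% interval -0.35 to 0.88, adjusted p = 0.472). The control libraries stood at 0.117, 0.224 and 0.618 CPM. By mean TPM Csf1 was the scarcest of the 6 genes in every group, with a highest value of 1.88 TPM, though its range overlapped that of Csf3r in pamidronate cells. Csf1 (ENSMUSG00000014599) lies on chromosome 3 at 107741048 to 107760469, minus strand.

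Relative to its receptor, the ligand transcript was most abundant in pamidronate cells and least abundant in control cells. Per read of Csf1, with 1 added to each count, there were 102.4 to 216.2 reads of Csf1r in the pamidronate + GGOH libraries, 27.1 to 48.0 in the pamidronate libraries and 2082 to 7745 in the control libraries. As log2 ratios of Csf1 to Csf1r these averaged -7.04 ± 0.62 in pamidronate + GGOH cells, -5.24 ± 0.43 in pamidronate cells and -12.08 ± 0.97 in control cells (SD, n = 3 each). The groups did not overlap. Each difference again had the smallest exact two-sided permutation p possible here, 0.1, before and after adjustment over the 6 ratio tests.

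**Figure D3:**
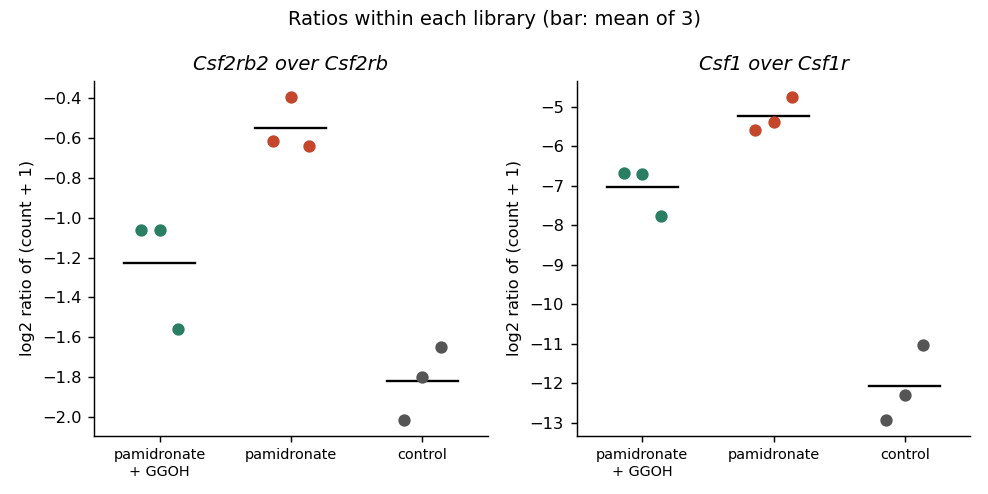
Log2 ratio of counts (1 added to each) of Csf2rb2 to Csf2rb and of Csf1 to Csf1r in each of the 9 libraries, with bars for the mean of 3. In both panels the pamidronate + GGOH libraries lie between the pamidronate libraries, which are highest, and the control libraries, which are lowest.

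**Figure D4:**
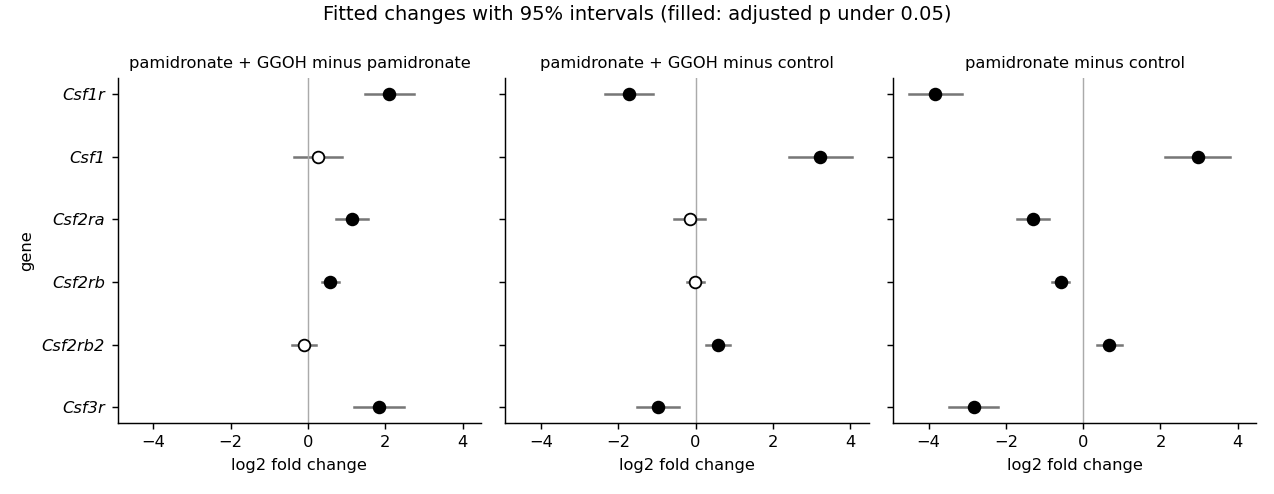
Log2 fold changes of the 6 genes in the 3 comparisons, with 95% intervals and filled points where the adjusted p was under 0.05. Csf1r, Csf2ra, Csf2rb and Csf3r are to the right of 0 for pamidronate + GGOH minus pamidronate and to the left of 0 for pamidronate minus control, while Csf1 and Csf2rb2 pass only in the comparisons with control.

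Separation between groups was common in these data, and the 6 genes are read against it. Ranges of the 2 groups did not overlap for 6 of the 6 genes in pamidronate against control, where 73.4% of all tested genes were so separated. The same held for 5 of the 6 in pamidronate + GGOH against pamidronate, beside 59.6% of all genes, and for 4 of the 6 in pamidronate + GGOH against control, beside 58.2%.

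The genes that followed each of the 6 most closely were found by the root mean square difference between centred log2 CPM profiles over the 9 libraries, among 9344 named genes with a mean of at least 5 CPM. Closest to Csf1r were Il6ra, which encodes the interleukin-6 receptor (difference 0.12, Pearson r 0.998), and Tlr2, a receptor for bacterial lipoproteins (0.14), followed by Hacd4 (0.15). Il6ra averaged 33.4 CPM in pamidronate + GGOH cells, 8.90 CPM in pamidronate cells and 116.5 CPM in control cells. Closest to Csf1 were Itgb3, the beta chain of the osteoclast vitronectin receptor (0.30), Unc5a (0.37) and Il1rn, the interleukin-1 receptor antagonist (0.40). Csf3r had Jdp2, a repressor of the AP-1 family (0.19), Gmfg (0.20) and Ttc7 (0.21). Csf2ra had Washc5 (0.13), Pts (0.14) and Cd200r1 (0.14), Csf2rb had Ercc4 (0.07), Ywhah (0.07) and Stard3nl (0.08), and Csf2rb2 had Setdb2 (0.10), Slc35b3 (0.12) and Anapc16 (0.14). The 9 libraries fall into 3 groups by treatment, so these measures describe likeness of pattern and carry no test.

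Of the other CSF-family ligands, only Csf3, which encodes G-CSF, had enough reads to test. It had 20, 10 and 19 counts in pamidronate + GGOH libraries, 16, 13 and 13 in pamidronate libraries, and 1, 2 and 1 in control libraries. As with Csf1, both groups given pamidronate lay above every control library, with log2 differences from control of 3.45 ± 0.56 for pamidronate + GGOH (adjusted p = 0.000178) and 3.36 ± 0.57 for pamidronate (adjusted p = 0.0001). Il34, which encodes the second ligand of Csf1r, was at 7, 7 and 7 counts, then 6, 7 and 8, then 2, 2 and 0 in the same order of groups. Csf2, the gene of GM-CSF, had 6, 5 and 11 counts in pamidronate + GGOH libraries, 0, 0 and 1 in pamidronate libraries, and 1, 2 and 8 in control libraries. At these depths no difference in Il34 or Csf2 was tested.

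Beyond the genes chosen by name, 61 genes of the CSF pathways were listed by role, of which 51 were tested. The list includes the other ligands and other receptors of these families, Csf3 and Pdgfrb among those tested. With pamidronate against control 9 of them rose, 33 fell and 9 did not pass, at a median log2 change of -0.62 beside 0.08 for all genes, of which 36.2% rose and 32.9% fell. With GGOH added to pamidronate 22 rose, 5 fell and 24 did not pass (median 0.16), beside 25.2% of all genes rising and 23.6% falling. With pamidronate + GGOH against control 9 rose, 31 fell and 11 did not pass (median -0.48), beside 26.3% and 26.0%. The list was drawn up with earlier results of these data known, and its counts describe it without a test.

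Among 21 kinases, adaptors and STATs, 3 rose and 15 fell with pamidronate against control, where 69.2% of all genes passed. Fgr, a Src-family kinase of myeloid cells, averaged 19.8 ± 7.51 CPM in pamidronate + GGOH cells, 5.11 ± 1.79 CPM in pamidronate cells and 52.3 ± 2.15 CPM in control cells. Its change was -3.35 ± 0.31 on the log2 scale for pamidronate against control (adjusted p = 1.31e-05) and 1.96 ± 0.31 for GGOH added to pamidronate (adjusted p = 0.000891). Pik3cd, the leukocyte PI3-kinase catalytic subunit, and Plcg2, a phospholipase, fell by 1.75 and 1.46 with pamidronate against control, and rose by 1.07 and 1.14 on adding GGOH. Tyrobp, the adaptor DAP12 that osteoclasts need, fell by 1.23 with pamidronate against control but gave only 0.11 ± 0.11 on adding GGOH, which did not pass (adjusted p = 0.461). In all, 8 of the 21 rose and 2 fell when GGOH was added, a share near the 48.8% of all genes that passed, and 3 rose and 13 fell in pamidronate + GGOH cells against control, beside 52.4%.

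Of 10 genes that damp CSF signals, 2 rose and 5 fell with pamidronate against control, and 5 rose and 0 fell on adding GGOH, shares passing (7 and 5 of 10) that are close to the 69.2% and 48.8% of all genes. In pamidronate + GGOH cells against control 3 rose and 7 fell, beside 52.4% of all genes passing. Those that fell with pamidronate against control included the phosphatase genes Ptpn6 (SHP-1) and Inpp5d (SHIP-1) and the docking protein gene Dok2. Their log2 changes in that comparison were -2.46 ± 0.18, -1.89 ± 0.13 and -2.09 ± 0.13. All 3 rose on adding GGOH, by 1.20, 0.77 and 1.42. Cblb, a ubiquitin ligase, rose by 1.01 with pamidronate against control and by 1.11 with pamidronate + GGOH against control.

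Csf1r and other receptors are cut from the cell surface by proteases. Of 3 tested genes listed for this shedding, 3 fell with pamidronate against control, where 32.9% of all genes fell and 69.2% passed. On adding GGOH 2 rose and 0 fell, beside 48.8% of all genes passing. Adam10 and Adam17 fell by 1.65 and 1.03 on the log2 scale with pamidronate against control. Adam10 rose by 0.87 on adding GGOH, while Adam17 averaged 120.5 ± 20.0 CPM in pamidronate + GGOH cells and 116.6 ± 9.95 CPM in pamidronate cells, a difference that did not pass (adjusted p = 0.741). Rhbdf2, whose product guides ADAM17 to the surface, fell by 0.50 and rose by 0.38 in the same comparisons. In pamidronate + GGOH cells against control, Adam10 and Adam17 were lower (log2 -0.78 and -0.98). Rhbdf2 did not pass there (-0.12, adjusted p = 0.347).

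Of 15 transcription factors listed as acting on CSF genes, 9 fell with pamidronate against control and 3 rose. Of all genes, 32.9% fell and 36.2% rose. Binding of these factors was not measured here. Spi1, which encodes PU.1, averaged 199.5 ± 39.0 CPM in pamidronate + GGOH cells, 163.6 ± 18.5 CPM in pamidronate cells and 344.2 ± 8.39 CPM in control cells. It fell by 1.07 on the log2 scale with pamidronate against control, and its difference of 0.29 ± 0.12 on adding GGOH did not pass (adjusted p = 0.0683). That difference lay near the threshold. It passed with upper-quartile factors (adjusted p = 0.0454), with reduced library sizes (0.0419) and with no filter on low counts (0.00342). It also passed without replicate 1 (0.0119) or 2 (0.0412) of pamidronate + GGOH, a group in which replicate 3 was highest at 243.9 CPM. The difference did not pass in the other alternatives. Fli1, Mitf and Cebpa changed by -2.78, -1.98 and -1.93 with pamidronate against control, and by 1.42, 0.94 and 0.72 on adding GGOH. Cebpe, a granulocyte factor, rose by 0.94 with pamidronate against control and changed by -1.42 on adding GGOH. Ets2 changed by -1.37 ± 0.15 with pamidronate against control and by 1.25 ± 0.15 on adding GGOH, and its difference between pamidronate + GGOH and control, -0.12 ± 0.15, did not pass (adjusted p = 0.507). On adding GGOH 6 of the 15 factors rose and 3 fell, and against control 2 rose and 8 fell in pamidronate + GGOH cells, where 48.8% and 52.4% of all genes passed.

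**Figure D5:**
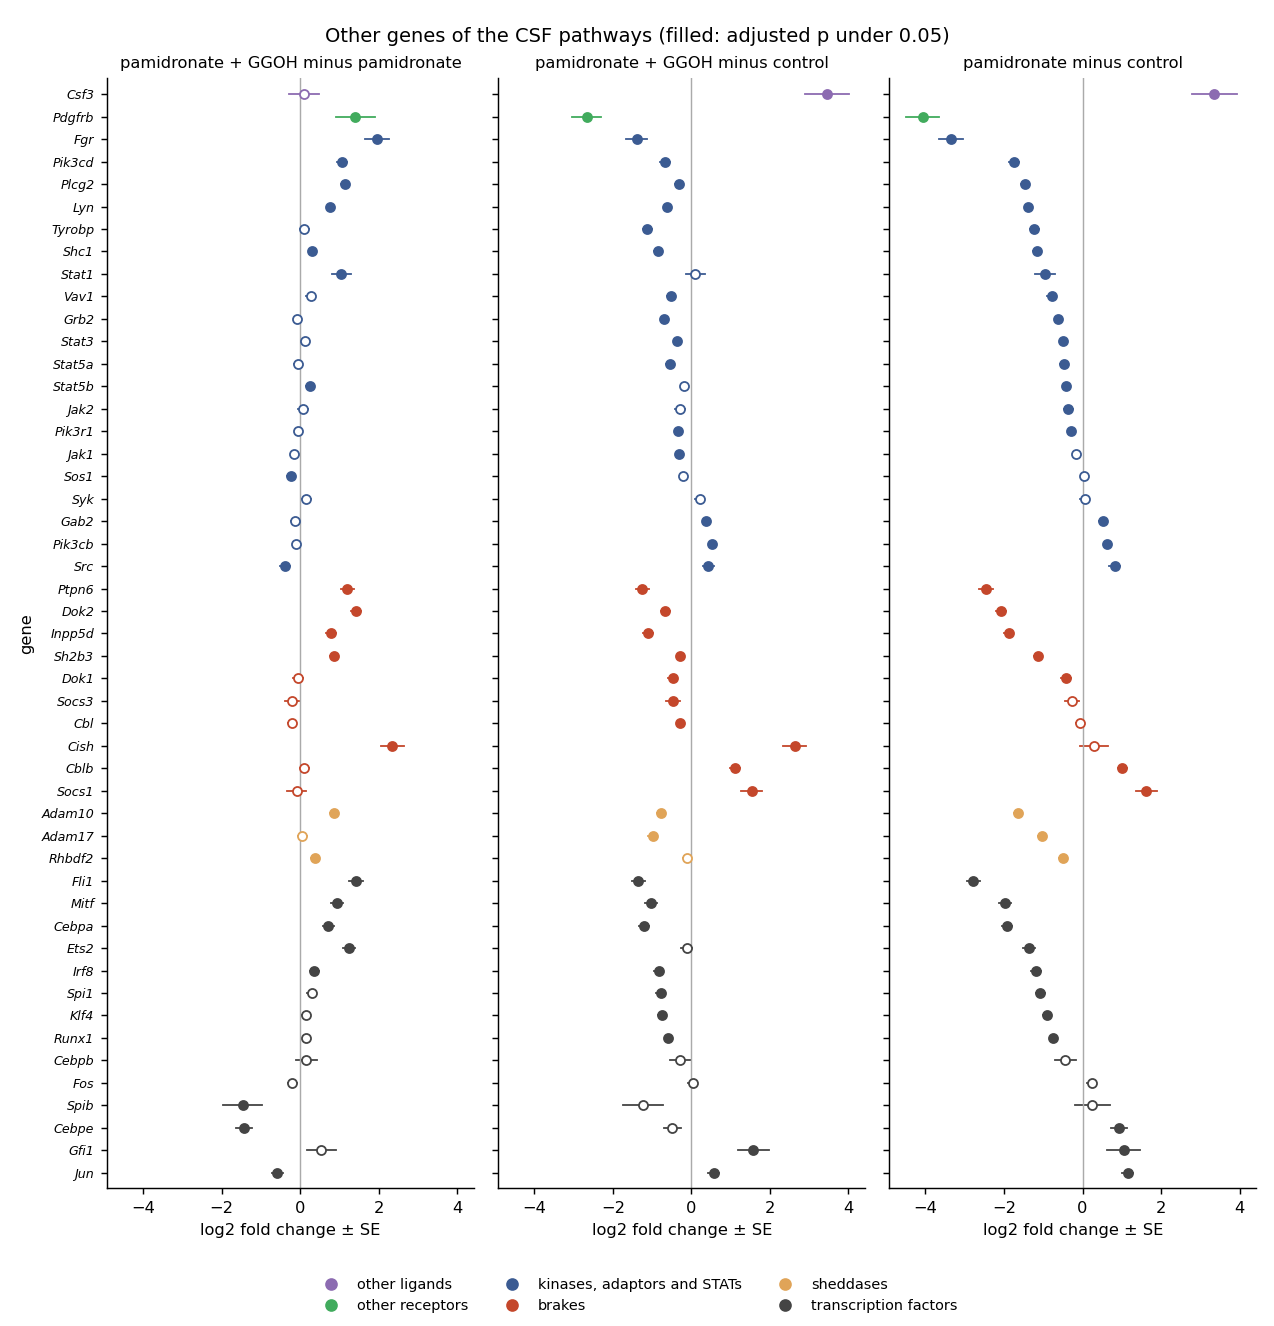
Log2 fold changes with SE of tested CSF-pathway genes, grouped by role and ordered by their change with pamidronate against control; filled points had an adjusted p under 0.05. Most genes lie to the left of 0 in both comparisons with control, and Fgr and Fli1, far to the left there, lie to the right of 0 for pamidronate + GGOH minus pamidronate.

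PU.1 binds sequences with a GAGGAA core, and the starts of the receptor genes were searched for it on both strands. RefSeq windows of 300 bases (250 before and 50 after the gene's start, GRCm38.p6) were at hand for 4 of the 6 genes, Csf1, Csf2ra, Csf2rb2 and Csf3r, and 3 of these held GAGGAA, where 28.3% of 32851 such windows in the mouse do. It was not found in the Csf1 window. The C/EBP-type motif TTGCNNAA and the AP-1-type motif TGANTCA, present in 10.8% and 7.81% of windows, were found in none of the 4. The stretches of 30 bases around each match are shown because they are the letters behind that count, with GAGGAA or its reverse complement TTCCTC in capitals. They lie at chr19:61228412-61228441 (minus strand) for Csf2ra, whose RefSeq start is at 61228418, at chr15:78305871-78305900 and chr15:78305675-78305704 (both minus strand) for Csf2rb2, whose RefSeq start at 78305721 lies outside the gene as the authors' files place it, and at chr4:126024561-126024590 (plus strand) for Csf3r, whose RefSeq start is at 126024659.
Csf2ra: cctgcagatGAGGAAGAGGAAgcgggagac
Csf2rb2 at 78305871: ctctgtgtctgcTTCCTCcagagaagtcag
Csf2rb2 at 78305675: ggcactggcaacTTCCTCaatctgctctct
Csf3r: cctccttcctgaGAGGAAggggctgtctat
A match is a description of these letters and not a binding site. Csf2ra and Csf3r fell with pamidronate and Csf2rb2 rose, so genes with a match moved in both directions.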

How the data were processed

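The starting point was the deposited table of raw counts (49315 genes, 9 libraries), which matched the authors' per-sample files in every row. The deposited TPM values equal count over exon length scaled per library. They served to set levels of different genes side by side, and for the shares and sums of the receptor genes. Per the submitters' processing notes, reads were trimmed with Trimmomatic 0.36, the build was GRCm38, and DESeq is listed without a version. No aligner, counter or strand setting is named in the sources used here. Ribosomal RNA was removed from total RNA, per the labels' protocols, so reads of unspliced RNA can be present.

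Low genes were dropped with the defaults of filterByExpr, leaving 15963, and TMM factors were applied. A fit of 3 group means over all libraries gave each contrast by the quasi-likelihood test of edgeR 4.0.16 under R 4.3.3, with robust estimation. P-values were adjusted by Benjamini-Hochberg over all genes and called under 0.05. An SE was taken as |log2 fold change| divided by the root of F. Ratios within libraries (1 added to each count) had exact two-sided permutation tests. Libraries held 14356069 to 18957968 counts. Control titles speak of biological replicates. For the other groups nothing says that cultures were separate, so p-values measure the spread among these samples. No library was a copy of another.

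For each role and comparison, up to 4 called pathway genes with the largest change and at least 5 CPM in the higher group were named. Csf3, Csf2, Il34, Il3ra, Tyrobp, Cd14, Spi1, Cebpe, Ets2, Cish and Socs1 were chosen after their values were seen wherever that rule did not take them. Some listed pathway genes are counted but not reported here by name. For a marker symbol with more than 1 identifier, the one with most counts was used. The members and lists were chosen with earlier results of these data known. Alternatives were RLE and upper-quartile factors, reduced library sizes, no filter, a stricter filter, DESeq2 1.42.0, limma-voom (limma 3.58.1), separate fits of each pair of groups, a replicate block, a threshold of 0.01, the summed beta chains, and each library left out in turn.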

Additional observations from a re-analysis of the deposited data

How the results depend on the processing

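Over the 6 genes and the ratios, 12 recomputed values changed sign, and 2 others kept their sign and lost the call. Counts of pathway genes called ran from 40 to 46 for pamidronate against control, 20 to 29 for pamidronate + GGOH against pamidronate and 33 to 47 for pamidronate + GGOH against control, and in these comparisons 4, 7 and 9 pathway genes lost their call in at least 1 alternative, while 5, 4 and 7 gained one. Upper-quartile factors moved the median of all genes by more than 0.1 on the log2 scale, to 0.28 for pamidronate against control and 0.23 for pamidronate + GGOH against control. The fall of Csf2rb with pamidronate shrank there to -0.39 and still passed (adjusted p = 0.00262). Apart from the sum of the beta chains, changes of sign among the 6 genes arose in differences that did not pass the test. For pamidronate + GGOH against control, Csf2ra became 0.044 with upper-quartile factors and ran from -0.37 to 0.0057 when libraries were left out in turn. Csf2rb became 0.032 when the 2 groups were fitted alone, 0.072 with the stricter filter and 0.20 with upper-quartile factors, and ran from -0.084 to 0.11 with libraries left out. For pamidronate + GGOH against pamidronate, Csf2rb2 ran from -0.22 to 0.043. Fitting the sum of Csf2rb and Csf2rb2 as 1 gene gave -0.19 for pamidronate against control, ending both calls and turning the sign of Csf2rb2. It gave 0.15 for pamidronate + GGOH against control, ending the call of Csf2rb2, and 0.34 for pamidronate + GGOH against pamidronate, of the opposite sign to Csf2rb2. The rise of Csf1 with pamidronate against control ran from 2.57 to 3.75 with libraries left out, the highest value being the one without control replicate 3. Same-numbered libraries of different groups had correlations of deviations from -0.22 to 0.20, and differently numbered ones from -0.215 to 0.177. With so few libraries a group, these values do not settle whether the replicate numbers pair the libraries. With replicate number as a block, Csf1r changed by -3.81 with pamidronate against control, Csf1 by 2.98, and no call of the 6 genes changed. Depth limits Csf1 and Csf3r most, since they rest on 2 to 55 and 22 to 234 counts a library, and Csf2, Il34 and Il3ra could not be tested.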

Other observations

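Some genes around the CSF receptors were singled out after their values were seen. Cish, a feedback inhibitor switched on by STAT5 downstream of cytokine receptors, averaged 4.97 ± 1.39 CPM in pamidronate + GGOH cells, 0.975 ± 0.147 CPM in pamidronate cells and 0.793 ± 0.255 CPM in control cells (SD, n = 3 each). It rose on adding GGOH to pamidronate (log2 2.35 ± 0.30, adjusted p = 1.84e-05, edgeR quasi-likelihood test) and against control (2.63 ± 0.30, adjusted p = 1.26e-05), and did not pass for pamidronate against control (0.28 ± 0.36, adjusted p = 0.492). Socs1, a related feedback inhibitor, averaged 2.72 ± 0.240 CPM, 2.90 ± 0.666 CPM and 0.935 ± 0.112 CPM in the same 3 groups and so was higher in both groups given pamidronate, with adjusted p of 0.000334 and 8.5e-05 against control.

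Pdgfrb, which encodes the platelet-derived growth factor receptor beta, ends 15536 bases before Csf1r on the same strand of chromosome 18 in GENCODE M21. Csf1r starts there at 61100598, and at 61105572 in the authors' files. Counts of Pdgfrb were 20, 11 and 52 in pamidronate + GGOH libraries, 5, 10 and 13 in pamidronate libraries, and 191, 156 and 158 in control libraries. It fell with pamidronate against control (log2 -4.07 ± 0.42, adjusted p = 2.59e-06), beside -3.82 for Csf1r. Its difference on adding GGOH to pamidronate (1.41 ± 0.49, adjusted p = 0.0313) was not stable: it was 0.70 without replicate 3 of pamidronate + GGOH (adjusted p = 0.178), 1.09 without pamidronate replicate 1 (0.119), 1.47 without pamidronate replicate 2 (0.0787) and 1.26 with limma-voom (0.0863).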
